A study of Mus musculus with 2 samples.

Results

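Glul-high perivenous hepatocytes are the liver cells that sit around the central vein and carry very high levels of Glul, the gene for glutamine synthetase. Here they were droplet barcodes selected on measured values in a mouse liver single-cell RNA-seq dataset. A barcode was kept as a hepatocyte when it had at least 5000 unique molecular identifiers (UMIs, 1 per captured RNA molecule), at least 1% of them from Alb, more than 2.5% and at most 25% from mitochondrial genes, and fewer than 3 detected genes of 15 that mark other liver cells. Of the 2029 hepatocytes found in this way, 68 were chosen by a Glul share of at least 0.06% of UMIs. These 68 Glul-high hepatocytes, 28 from WT and 40 from HKO, came from 50078 barcodes in all. The other 1961 hepatocytes, which met every limit except that on Glul, served as the comparison.

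The study asked which liver cell populations change in advanced disease when miR-33 is deleted from hepatocytes. HKO mice carried a loxP-flanked miR-33 gene and a Cre recombinase driven by the albumin promoter, and WT mice were their littermates. Both genotypes received CD-HFD, a choline-deficient high-fat diet, for 6 months from 8 weeks of age, so no library came from mice on a normal diet. Each genotype was 1 library from 3 pooled livers, in which purified hepatocytes and sorted nonparenchymal cells had been combined in equal numbers. With 1 library per genotype there was no spread between animals to set a difference against, so no test was made, and barcodes were not treated as replicates. Intervals are given at 95%, and counting error is the only error in them.

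In the liver lobule, blood flows from the portal tract to the central vein, and hepatocytes differ in their enzymes along this path. Periportal hepatocytes make urea from ammonia and break down glutamine. The thin layer next to the central vein captures the ammonia that escapes and fixes it into glutamine with glutamine synthetase. Wnt ligands from the endothelium of the central vein keep this layer's program on through beta-catenin, and Lgr5 and Axin2 are among its target genes. Glul lies on chromosome 1 (153899944 to 153909723, GRCm38).

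The deleted miRNA is shown because its removal defines the HKO library. The mature sequence, on the plus strand of chromosome 15 at 82198127 to 82198147 in RefSeq for GRCm38.p6, has its seed (bases 2 to 8) in capitals.
mmu-miR-33-5p: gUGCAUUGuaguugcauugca
The miRNA itself was not measured, because the gene table held no row for it, so the deletion could not be checked in these cells. Its host gene Srebf2, a regulator of cholesterol synthesis, had 17 UMIs in WT and 16 UMIs in HKO Glul-high hepatocytes, or 24.3 and 33.8 CPM (UMIs of a gene scaled to a class total of 1e6). The Srebf2 ratio of HKO over WT was 1.40 (0.66 to 2.94), an interval that includes 1.

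In all, 30078 WT barcodes carried 130451427 UMIs, and 20000 HKO barcodes carried 52563185. In WT, 1062 barcodes met the hepatocyte limits and in HKO 967 did. Glul-high hepatocytes were 2.64% of WT hepatocytes (1.76 to 3.79, Clopper-Pearson) and 4.14% of HKO hepatocytes (2.97 to 5.59), and these intervals overlapped. With a Glul limit of 0.03% the order was the opposite, at 7.82% in WT and 6.51% in HKO. The 28 WT members had a median of 24656 UMIs (5449 to 53400), against 18250 in the other WT hepatocytes. The 40 HKO members were shallower, with a median of 9389 UMIs (5256 to 36580) against 12864. Barcode sequences of the WT library were not used here, so barcodes shared between the libraries were not counted.

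Glul chose the members, and its values are therefore a description. The Glul share ran from 0.0601% to 1.51% of UMIs in WT members, with a median of 0.141%, and from 0.0733% to 1.97% in HKO members, with a median of 0.807%. HKO members were thus mostly far above the limit, whereas many WT members lay close to it: 12 of 28 WT members and 3 of 40 HKO members had a share under 0.12%, 7 and 10 had 0.12% to 0.5%, and 9 and 27 had 0.5% or more. The WT member nearest to the limit had 4 Glul UMIs among 6658 (0.0601%) and the nearest WT barcode outside had 3 among 5011 (0.0599%), so 1 molecule separated them. In HKO the nearest member had 14 Glul UMIs among 19111 (0.0733%) and the nearest barcode outside had 6 among 11027 (0.0544%).

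RNA outside the cells can enter any droplet, and Glul was also found in barcodes of other kinds. Barcodes near the commonest depth of each library, 2570 UMIs for WT and 812 for HKO, had Glul at 0.0185% and 0.0324% of UMIs. T or NK-like barcodes had 0.0122% in WT (9 barcodes) and 0.0162% in HKO (378 barcodes), and Glul made by these cells themselves was not told apart from free RNA. The limit of 0.06% lay above each of these levels, but the part of free RNA in the shallow WT members with 4 or 5 Glul UMIs was not tested.

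**Figure D1:**
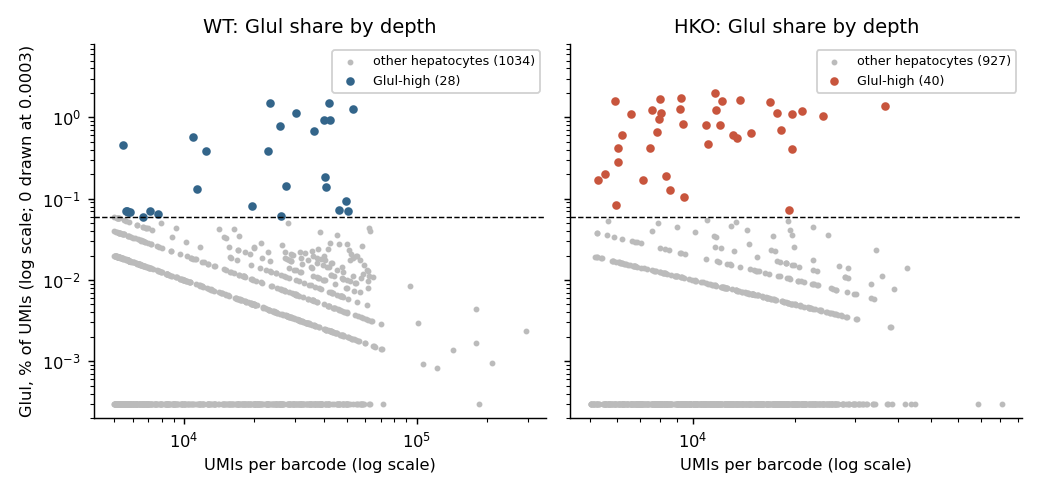
Glul share of UMIs against the UMIs of each hepatocyte barcode in WT and HKO, both on log scales, with the limit of 0.06% as a dashed line and barcodes without Glul drawn at 0.0003. Coloured points are the 28 WT and 40 HKO members. Most HKO members lie at 0.5% or more, and a row of shallow WT members lies just above the line.

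The label was then checked on Oat and Slc1a2, genes known to be restricted to the same cell layer and not used in the choice. Oat (chromosome 7, 132557478 to 132576398) encodes ornithine aminotransferase, which feeds glutamate to glutamine synthetase. It reached 2981 CPM in WT members against 43.5 CPM in the other hepatocytes, a ratio of 68.6 (63.7 to 73.9), and 6276 against 128 CPM in HKO, a ratio of 49.1 (46.2 to 52.1). Under the other settings the Oat ratio ran from 30.98 to 94.35 in WT, lowest with barcodes thinned to 5000 UMIs and members chosen again, and from 35.96 to 57.13 in HKO. Oat was detected in 24 of 28 WT members, where its share ran from 0 to 1.24% of UMIs with a median of 0.142%. In HKO it was detected in 38 of 40 members, from 0 to 1.22% with a median of 0.624%.

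Slc1a2 (chromosome 2, 102658659 to 102790784) encodes the glutamate transporter GLT-1, which brings in the substrate of glutamine synthetase. Its 900 CPM in WT members stood against 2.71 CPM in the other hepatocytes, a ratio of 332 (257 to 435). In HKO it was at 1673 against 10.3 CPM, a ratio of 162 (135 to 195). Under the other settings the ratio ran from 82.8 to 2212.5 in WT, lowest with thinning and members chosen again and highest after subtraction of free RNA, and from 126 to 260.5 in HKO, so its size is uncertain. Slc1a2 was found in 17 of 28 WT members (0 to 0.367% of UMIs, median 0.0312%) and in 35 of 40 HKO members (0 to 0.454%, median 0.178%). Both markers were detected together in 16 WT and 34 HKO members, and neither was detected in 3 WT members and 1 HKO member. A single UMI is weak evidence, since Oat was also detected in 387 of the 1034 other WT hepatocytes. With both markers at 0.06% of UMIs or more, 30 of 40 HKO members and 10 of 28 WT members carried the markers of the label, so the label held for most HKO members and for a minority of WT members at that level. The 4 barcodes with neither marker had only 4 or 5 Glul UMIs each, and members without Slc1a2 alone also occurred at higher Glul shares.

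Detection was compared again after each barcode had been thinned to 5000 UMIs. Oat was then found in 78.6% of WT members and 17.2% of the other WT hepatocytes, and in 95% and 21.9% in HKO. Barcodes at the commonest depth had Oat in 24.4% (WT, median 2597 UMIs) and 19.7% (HKO, median 840 UMIs), above the share in the other WT hepatocytes and below that in the other HKO hepatocytes. Slc1a2 was found in 57.1% and 87.5% of thinned WT and HKO members, against 2.81% and 4.10% of the others and 5.198% and 5.445% of barcodes at the commonest depth.

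In WT the level of Oat was higher in each higher band of Glul, whereas HKO had an exception. In WT, Oat was at 30.5 CPM in hepatocytes without Glul, 89.0 CPM at 0.03% to 0.06%, 550 CPM at 0.06% to 0.12%, 2012 CPM at 0.12% to 0.5% and 5384 CPM at 0.5% or more. The same bands in HKO had Oat at 65.6, 1640, 203, 3787 and 7467 CPM, where the value of 203 rests on 3 barcodes. The HKO band of 0.03% to 0.06%, which lies just outside the limit and held 23 barcodes, also had Slc1a2 at 257 CPM, against 10.3 CPM in the 55 WT barcodes of that band. Oat and Slc1a2 each reached 0.06% of UMIs in 5 of the 927 other HKO hepatocytes and in 0 of the 1034 other WT hepatocytes. A few HKO barcodes with the markers of this layer thus fell outside the Glul limit.

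**Figure D2:**
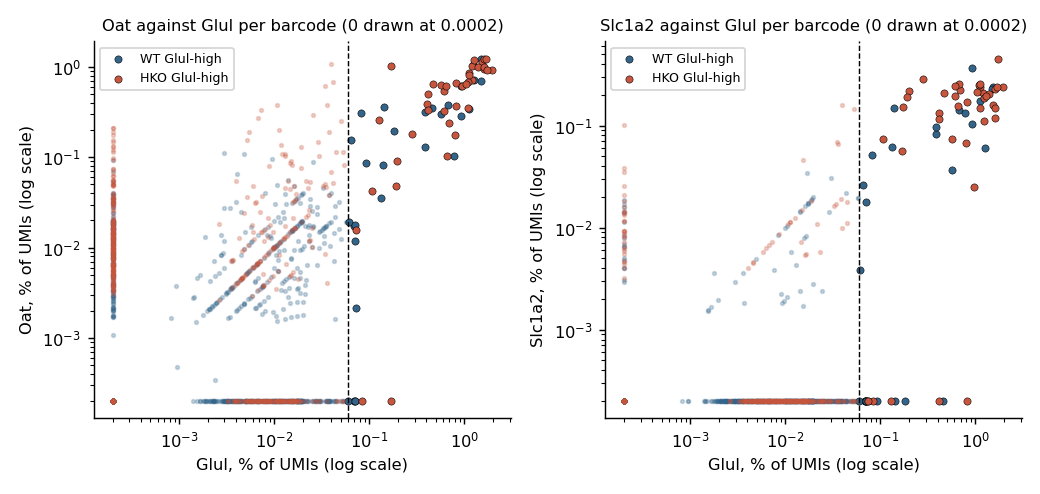
Share of UMIs from Oat (left) and Slc1a2 (right) against that from Glul in each hepatocyte barcode, on log scales, with barcodes at 0 drawn at 0.0002. Large outlined points are the members, pale points are the other hepatocytes and the dashed line is the Glul limit of 0.06%. Most members lie at the upper right, and the members without Slc1a2 lie on the lower edge.

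Across the transcriptome, 5000 genes had a mean of at least 20 CPM over members and others of both libraries and were compared, leaving out the genes used in the choice. Of these, 135 genes (2.7%) were at least 2-fold higher in Glul-high than in other hepatocytes in WT and again in HKO, and 83 genes (1.66%) were at least 2-fold lower in both. In WT alone 161 genes (3.22%) were higher and 145 (2.9%) lower, and in HKO alone 244 (4.88%) and 199 (3.98%). The median log2 ratio over all compared genes was 0.02 in WT and 0.11 in HKO, close to 0 in each. A gene that is nearly silent outside this layer could pass the minimum of 20 CPM only through the members, so counts within the perivenous lists are descriptions.

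**Figure D3:**
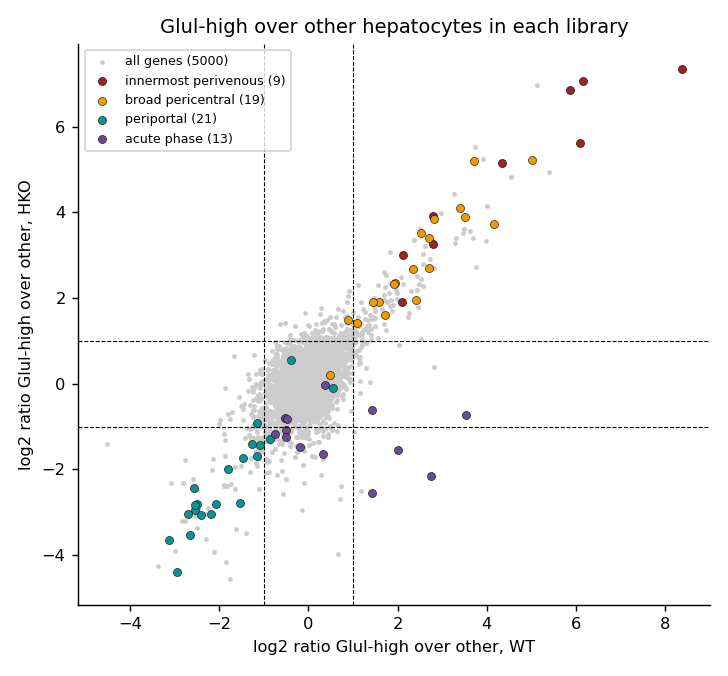
Log2 ratio of CPM in Glul-high over other hepatocytes, WT on the horizontal and HKO on the vertical axis, for the 5000 compared genes, with dashed lines at 2-fold. The 9 innermost perivenous genes and 17 of the 19 broad pericentral genes lie past 2-fold at the upper right, 17 of the 21 periportal genes lie past it at the lower left, and several acute phase genes lie apart at the lower right.

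Genes listed for the innermost perivenous layer were higher in members. Of the 11 listed genes 9 passed the minimum, some only through the members. These 9 were at least 2-fold higher in both libraries, against 2.7% of all compared genes. Their median log2 ratio was 4.33 in WT and 5.16 in HKO. Rhbg, an ammonium transporter, had 41 UMIs in WT members and 20 UMIs in all other WT hepatocytes, a ratio of 71.2 (40.8 to 128), and in HKO 47 against 10 UMIs gave 134 (66.7 to 297). Slc13a3, a transporter of dicarboxylates, was 58.3-fold (34.7 to 99.9) and 116-fold (59.3 to 250) higher. Lhpp, a histidine phosphatase, was 20.2-fold (14.2 to 28.5) and 35.8-fold (26.3 to 49.0) higher. All 3 genes had few UMIs in the other hepatocytes. With thinning and members chosen again the WT ratio was 22.1 for Slc13a3 and 11.04 for Lhpp.

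Lect2, which encodes a secreted hepatokine, differed less. It was at 542 CPM in WT members against 78.2 CPM, a ratio of 6.93 (6.19 to 7.74), and in HKO at 567 against 58.7 CPM, or 9.66-fold higher (8.38 to 11.1). Barcodes at the commonest depth had Lect2 at 110.9 and 91.1 CPM, and T or NK-like barcodes at 30.4 and 14.7 CPM, on either side of the other hepatocytes. The organic cation transporter Slc22a3 was 6.92-fold and 15.1-fold higher, the aromatic amino acid transporter Slc16a10 4.38-fold and 8.09-fold, and the tight junction gene Cldn2 4.30-fold and 3.76-fold. The other two genes of the list were under the minimum: the neutral amino acid transporter Slc1a4 had 12 and 10 UMIs in WT and HKO members, and the vasopressin receptor Avpr1a had 22 and 15 UMIs.

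Targets of Wnt signaling were mostly higher in members as well. Lgr5, the receptor for R-spondins (chromosome 10, 115450311 to 115587780), was at 75.6 CPM in WT members against 1.81 CPM, a ratio of 41.8 (27.5 to 63.9), and at 78.2 against 2.53 CPM in HKO, a ratio of 31.0 (18.9 to 50.8). Among WT members 15 of 28 had an Lgr5 UMI, and among HKO members 18 of 40 did. Tbx3, a transcription factor, was 12.3-fold (8.78 to 17.0) and 11.8-fold (8.11 to 16.9) higher. With thinning and members chosen again the WT ratios fell to 22.1 for Lgr5 and 4.275 for Tbx3. The negative feedback regulators of the pathway Rnf43 (3.52-fold and 4.35-fold) and Notum (3.25-fold and 6.06-fold) also passed 2-fold in both libraries, and Znrf3 was at 1.68-fold and 1.96-fold. Ccnd1, which encodes cyclin D1, was lower in members, at 14.3 against 82.3 CPM in WT and 8.46 against 47.1 CPM in HKO.

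The remaining Wnt targets were below the minimum. Sp5 had 11 UMIs in the 28 WT members and 4 in the 1034 other hepatocytes, and 10 against 5 UMIs in HKO. Nkd1 had 6 against 3 UMIs in WT and 15 against 1 UMI in HKO. Axin2, the standard reporter gene of the pathway, had 13 UMIs in 9 WT members and 58 UMIs in 45 of the other hepatocytes (18.5 against 2.38 CPM, ratio 7.78, 3.91 to 14.4). In HKO it had 4 UMIs in 4 members and 28 UMIs in 23 others (8.46 against 2.08 CPM, ratio 4.06, 1.04 to 11.6). Of the 9 listed targets, 6 were compared, with 4 higher and 1 lower, against 2.7% and 1.66% of all compared genes. The median log2 ratio of these 6 was 1.76 in WT and 2.36 in HKO. With each barcode thinned to 5000 UMIs and the members chosen again on the thinned counts, which took 46 WT barcodes and 27 of the 28 members, the WT median was -0.47.

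Promoters of these genes were searched for the letters CTTTGAT, a core sequence bound by TCF/LEF factors, on both strands, in RefSeq promoters of GRCm38.p6 (250 bases before to 50 after each start). The letters were present in 3.73% of the 32851 promoters and in at least 1 promoter of 4.29% of genes. They were present in 2 of 9 innermost perivenous genes with a promoter in the set (Slc1a2 and Lect2), 1 of 4 Wnt targets (Sp5), 1 of 14 broad pericentral genes (Cyp2c29) and 3 of 16 periportal genes (Nags, Hal and G6pc). The windows of the perivenous and Wnt target genes are given 5′ to 3′ on the strand of the gene, with the matching letters or their reverse complement in capitals.
The Slc1a2 window lies 47562 bases inside the gene from its annotated start in GENCODE, at an alternative start in RefSeq, and the Cyp2c29 window 17551 bases inside.
Slc1a2, chr2:102706221-102706247, plus strand: gaagagggacATCAAAGgccccaaatg
Lect2, chr13:56548554-56548580, minus strand: gcttctccagATCAAAGgctttggccg
Sp5, chr2:70474809-70474835, plus strand: gcaaggccccCTTTGATcaggaaaatc
The Glul promoter in the set did not hold these letters, and the periportal list held them in 18.8% of its genes, so the match did not separate the zones in these windows.

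Enzymes of the broader pericentral zone, mostly cytochrome P450 genes for drugs and steroids, were also higher in members. Of the 19 listed genes, 17 were at least 2-fold higher in both libraries and 0 were lower, against 2.7% and 1.66% of all compared genes. The median log2 ratio of the list was 2.42 in WT and 2.68 in HKO. Cyp2e1, an ethanol-inducible P450, was the most abundant, at 9610 against 1477 CPM in WT (ratio 6.51, 6.34 to 6.68) and 10140 against 1567 CPM in HKO (6.47, 6.27 to 6.68). It was present in all 68 members, from 0.0173% to 2.14% of UMIs in WT and from 0.0535% to 2.15% in HKO. Barcodes at the commonest depth had Cyp2e1 at 1776 and 1979 CPM, above the level in the other hepatocytes. Cyp1a2, the caffeine-metabolizing P450, was at 783 against 43.6 CPM in WT (18.0-fold) and 837 against 63.5 CPM in HKO (13.2-fold).

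Members of this zone differed in how sharply they were confined. Cyp2a5 was 32.5-fold and 37.7-fold higher and Gulo, the enzyme for the last step of vitamin C synthesis, 10.6-fold and 17.3-fold. Cyp2c37 was 13.1-fold (11.6 to 14.7) higher in WT and 36.7-fold (32.1 to 41.9) in HKO. With thinning and members chosen again the WT ratios were smaller, at 5.27 for Cyp2c37, 17.4 for Cyp2a5, 7.55 for Cyp1a2, 6.32 for Gulo and 3.53 for Cyp2e1. By contrast, Por, the electron donor of the P450 enzymes, was 2.14-fold and 2.68-fold higher. Gstm1 (1.86-fold and 2.80-fold) and Alas1, the first enzyme of heme synthesis (1.39-fold and 1.15-fold), did not pass in both libraries. The Cyp2c and Cyp2a genes have close paralogs, so the division of UMIs among them is uncertain.

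Genes of the periportal zone were lower. Of the 21 compared genes, 17 were at most 0.5-fold in both libraries, against 1.66% of all compared genes, and 0 were higher, with a median log2 ratio of -2.07 in WT and -2.80 in HKO. The WT value moved with the settings: the median was -0.62 with thinning and members chosen again, where Cyp2f2 and Aldh1b1 no longer passed, and -0.95 with a Glul limit of 0.03%. Cyp2f2, a periportal P450, was at 148 against 965 CPM in WT (ratio 0.154, 0.126 to 0.186) and 110 against 905 CPM in HKO (0.122, 0.0907 to 0.159). Hal, which breaks down histidine, was at 0.189 and 0.1195, Sds, which breaks down serine, at 0.169 and 0.186, and Aldh1b1 at 0.130 and 0.0474. The gluconeogenic gene Pck1 was lower (0.286 and 0.251), whereas G6pc was at 0.759 and 1.48 and Fbp1 at 0.451 and 0.531, so gluconeogenic genes differed among themselves. Sdsl and Cdh1 were under the minimum, with 3 and 1 UMIs in WT members and 0 and 3 UMIs in HKO members.

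Enzymes of the urea cycle, with the exception of Nags, were lower in members, and its transporters did not pass 2-fold. Cps1, the first enzyme of the cycle (chromosome 1, 67123026 to 67231259), was at 422 against 2663 CPM in WT (ratio 0.159, 0.141 to 0.178) and 184 against 2115 CPM in HKO (0.0870, 0.0696 to 0.107). Under the other settings its ratio ran from 0.0690 to 0.488 in WT and from 0.0295 to 0.185 in HKO. Cps1 was detected in all 28 WT members and in 26 of 40 HKO members, and in 100% and 99.5% of the other hepatocytes. Ass1 was at 0.238 and 0.143, Asl at 0.360 and 0.299, and Otc at 0.449 and 0.312. The mitochondrial carriers Slc25a15 (0.616 and 1.10) and Slc25a13 (0.947 and 1.11) and the activator enzyme Nags (1.47 and 0.936) did not pass.

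Glutamine and glutamate genes went both ways, and 8 of the 15 compared passed in neither direction. Next to Oat, Slc1a2 and Rhbg, the proline oxidase gene Prodh was higher (3.13-fold and 3.33-fold). Gls2, the liver glutaminase, was lower at 35.7 against 203 CPM in WT and 38.1 against 266 CPM in HKO (ratios 0.176 and 0.143). Under the other settings its ratio ran from 0.0935 to 0.3997 in WT and from 0.0476 to 0.2306 in HKO. Got1, the cytosolic aspartate aminotransferase (0.441 and 0.276), and Slc7a2, a carrier of cationic amino acids (0.472 and 0.343), were lower too. Glud1, which encodes glutamate dehydrogenase, did not pass at 1.05 and 1.34, nor did the glutamine transporters Slc38a2 (0.650 and 0.805) and Slc38a3 (0.749 and 0.851). Of the 15 compared genes, 4 were higher and 3 lower, against 2.7% and 1.66% of all compared genes, and the median log2 ratio was -0.16 in WT and 0.05 in HKO. Slc1a4, Slc3a2 and Aldh18a1 were under the minimum.

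**Figure D4:**
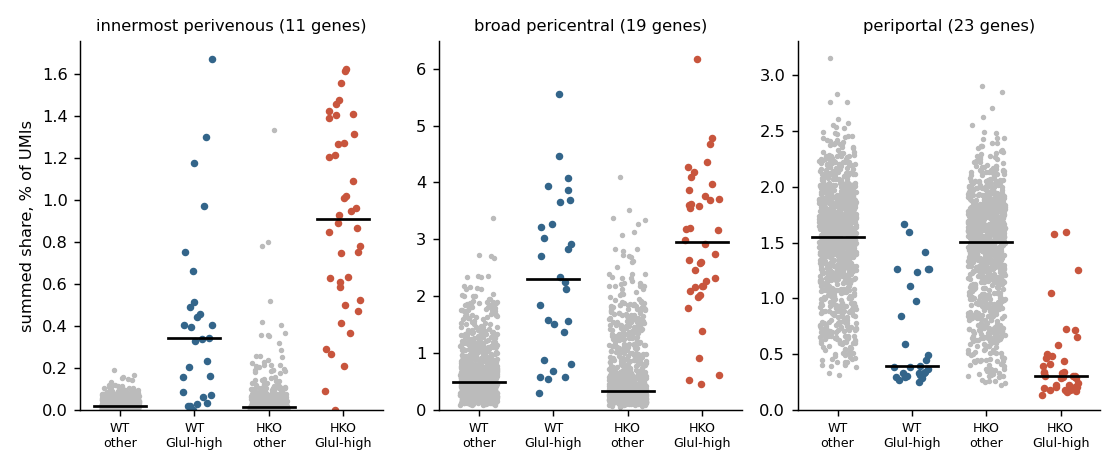
Summed share of UMIs from the innermost perivenous, broad pericentral and periportal lists in each hepatocyte barcode, by library and class, with black lines at the medians. Most members lie high in the first 2 panels and low in the last, and some members of both libraries overlap the other hepatocytes in all panels.

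Per barcode, the classes overlapped. The summed periportal share had a median of 0.391% in WT members (0.253% to 1.67%) against 1.55% in the others (0.312% to 3.15%), and 0.304% in HKO members (0.132% to 1.59%) against 1.504% (0.225% to 2.91%). The summed broad pericentral share had a median of 2.29% in WT members against 0.489%, and 2.96% in HKO members against 0.333%. The upper quartile of periportal share was 1.14% in WT members but 0.469% in HKO members, and 4 WT members lay near the other hepatocytes in both shares. These 4, chosen after their values were seen, had a periportal share of 1.23% to 1.67%, a pericentral share of 0.533% to 0.688%, 4 or 5 Glul UMIs, 0 or 1 Oat UMI and 0 Slc1a2 UMIs. Some HKO members also lay near the other hepatocytes in both shares. An HKO member with 31 Glul and 38 Oat UMIs had a periportal share of 1.593% and a pericentral share of 0.616%. Another with 11 Glul and 22 Oat UMIs had 1.256% and 0.454%, and a further member with 5 Glul and 0 Oat UMIs had 1.58% and 0.521%. Members with 0.06% to 0.12% Glul had Cyp2f2 at 266 CPM and Cps1 at 528 CPM in WT, compared with 52.6 and 273 CPM at 0.5% Glul or more.

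Beyond zonation markers, the 15 highest genes by the weaker library included the carboxylesterase Ces2c, the retinol dehydrogenase Rdh9 and the P450 gene Cyp4a12b. Ces2c was 16.2-fold and 17.7-fold higher, Rdh9 10.98-fold and 11.4-fold, and Cyp4a12b 15.8-fold and 10.0-fold, each from a family with close paralogs. With thinning and members chosen again the WT ratios were 8.495 for Ces2c, 6.04 for Rdh9 and 7.795 for Cyp4a12b. The 15 lowest included the cystine transporter subunit Slc3a1, with 3 UMIs in WT members and 1 UMI in HKO members (ratios 0.0970, 0.0200 to 0.284, and 0.0519, 0.0013 to 0.291). Serpina1e, an alpha-1 antitrypsin paralog, was at 0.126 and 0.0662, and Etnppl, which degrades phosphoethanolamine, at 0.176 and 0.0963. Gldc of the glycine cleavage system was at 0.179 and 0.131, and the serine carrier Sfxn1 at 0.177 and 0.136. Loss of the lower calls in WT was seen where depth and membership changed together. With a Glul limit of 0.03% or 0.12%, or with at least 10000 UMIs, 0 of the 15 were lost in WT. With barcodes thinned to 5000 UMIs and members chosen again, 8 of the 15 lowest genes lost the 2-fold call in WT, among them Aldh1b1 at 0.742, Gldc at 0.613, Etnppl at 0.580, Slc3a1 at 0.571 and Cyp2f2 at 0.509. Cps1 (0.488) and Sfxn1 (0.431) kept it but were nearer to 1.

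Of 13 bile acid genes, 5 were higher and 0 lower, against 2.7% and 1.66% of all compared genes. Cyp7a1, the rate-limiting enzyme of bile acid synthesis (chromosome 4, 6265612 to 6275633), was 5.89-fold (4.56 to 7.53) higher in WT and 6.92-fold (5.88 to 8.10) higher in HKO. Cyp7b1 of the alternative pathway was 3.06-fold and 3.89-fold higher, and the uptake carrier Slco1a1 5.97-fold and 4.87-fold, while Cyp27a1 and Slco1b2 belong to the pericentral list as well. The list's median log2 ratio was 0.31 in WT and 0.35 in HKO.

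Most lipid genes did not pass 2-fold in both libraries. Of 13 lipid droplet genes, 3 were higher, against 2.7% of all compared genes: the droplet proteins Cidea (5.59-fold and 5.06-fold) and Plin4 (4.71-fold and 2.93-fold) and the fatty acid receptor Cd36 (2.10-fold and 2.70-fold). Cidea UMIs were found in only 8 of 28 WT and 14 of 40 HKO members. Of 19 fatty acid oxidation genes, Pdk4, which restrains glucose oxidation (3.66-fold and 3.27-fold), and the thioesterase Acot1 (2.52-fold and 2.81-fold) were higher and 0 were lower. Of 12 lipogenic genes, Acly, which makes acetyl-CoA from citrate, was lower (0.496 and 0.496) and 0 were higher. Over all compared genes, 2.7% were higher and 1.66% lower. In the cholesterol synthesis list 0 of 11 genes passed 2-fold in both libraries, and its median log2 ratio was 0.13 in WT and 0.75 in HKO. In HKO taken alone, where 4.88% of all compared genes were at least 2-fold higher, 4 lipogenic and 4 cholesterol synthesis genes passed. In WT, where the share was 3.22%, 0 of each passed. The lipogenic genes were Fasn, the fatty acid synthase (0.954 in WT and 3.16 in HKO), the elongase Elovl6 (1.19 and 3.08), the transcription factor Mlxipl (1.16 and 2.03) and the malic enzyme Me1 (1.31 and 2.01). The cholesterol genes were Cyp51 (1.30 and 2.70), Fdps (0.690 and 2.65), Idi1 (1.25 and 2.44) and Hmgcs1 (1.88 and 2.21), where Cyp51, Fdps and Idi1 had 15 to 32 UMIs in the members of a library. The other hepatocytes also differed between the libraries: the ratio of HKO over WT of Fasn was 0.882 in members and 0.266 in the others, that of Elovl6 1.35 and 0.523, that of Mlxipl 1.02 and 0.581, and that of Me1 1.27 and 0.830. Of 13 lipogenic genes, 3 were at least 2-fold lower in HKO than in WT members, against 3.49% of all compared genes. They were Srebf1 (0.247 in members and 0.245 in the others), Thrsp (0.439 and 0.321) and Acaca (0.481 and 0.410).

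Markers of other cells were detected at low levels in the members, and in HKO the endothelial and macrophage sums were above those in the other hepatocytes. Of 9 endothelial markers, 5 were detected in WT and 5 in HKO members, with 15 UMIs in each library (21.4 and 31.7 CPM, against 23.3 and 19.03 CPM in the other hepatocytes), and Ldb2, Eng and Kdr were at 0 in both. The central vein endothelial markers Rspo3, Wnt2, Wnt9b and Kit summed to 0 UMIs in WT and to 3 UMIs, all in 1 barcode, in HKO. Macrophage markers summed to 7.13 and 21.2 CPM, against 13.96 and 15.24 CPM in the other hepatocytes, with Csf1r, Marco and Adgre1 at 0. T and NK cell markers summed to 10 UMIs in WT, all in 1 barcode, and to 3 UMIs in HKO, with Cd3e, Cd3d, Cd3g, Trac and Nkg7 at 0. Stellate cell markers summed to 5 and 0 UMIs, B cell markers to 1 and 3 UMIs and neutrophil markers to 1 UMI each. Some of these markers were limited by the rule itself, and the part of such RNA in the results was not tested. Hemoglobin genes summed to 5.71 and 10.6 CPM in members against 248 and 35.4 CPM in the other hepatocytes. Of the 5 cholangiocyte markers, Epcam, Krt19 and Krt7 were at 0 in the members, and the matricellular gene Spp1 was lower than in the other hepatocytes, at 21.4 against 93.2 CPM in WT and 4.23 against 64.6 CPM in HKO.

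Acute phase genes, which the liver induces during inflammation, differed between the libraries. In HKO all 13 listed genes had a ratio under 1, with a median log2 ratio of -1.17, and the serum amyloid genes Saa1 and Saa2 were at 0.341 and 0.224. In WT 7 of 13 had a ratio above 1, with a median of 0.33, and Saa1 was at 4.04 and Saa2 at 6.69. A single WT barcode of 46248 UMIs held 68.5% of the Saa1 UMIs and 81.5% of the Saa2 UMIs of all WT members. This barcode had Glul at 0.0735% and carried 343 Saa1, 287 Saa2 and 183 Lcn2 UMIs, but 8 Cyp2e1, 1 Oat, 0 Slc1a2 and 0 Lgr5 UMIs. The next richest WT member had 131 Saa1 UMIs together with 452 Cyp2e1, 138 Oat and 51 Slc1a2 UMIs. Without the first barcode the WT median was -0.50 and 5 of 13 genes were above 1. Without both it was -0.75 and 1 of 13 was above 1, with Saa1 at 0.247.

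The ratio of HKO over WT was then read within the members, where genotype and library cannot be told apart. Glul itself was at 5394 CPM in WT and 9178 CPM in HKO members, which is a description because Glul chose them. Of 5019 genes with a mean of at least 20 CPM in members, 156 (3.11%) had a ratio of HKO over WT of 2 or more and 175 (3.49%) a ratio of 0.5 or less, from class totals of 701124 UMIs in WT and 472895 UMIs in HKO. In the other hepatocytes, with 24349207 and 13453259 UMIs, 18 of 4930 genes were higher and 48 lower. The smaller totals of the members widen the counting error of each ratio. The median log2 ratio of HKO over WT was 0.02 in members and -0.07 in the others.

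Between the genotypes, 2 of 10 innermost perivenous, 1 of 6 Wnt target and 0 of 19 broad pericentral genes were at least 2-fold higher in HKO members, against 3.11% of all compared genes. At least 2-fold lower were 3 of 19 periportal genes, against 3.49% of all. The median log2 ratio of HKO over WT was 0.69 for innermost perivenous genes, against -0.24 in the other hepatocytes, and -0.41 for periportal genes, against -0.03. Oat was 2.11-fold (1.99 to 2.23) and Slc1a2 1.86-fold (1.67 to 2.07) higher in HKO members. In the other hepatocytes the ratios were 2.94 (2.73 to 3.18) for Oat and 3.81 (2.82 to 5.19) for Slc1a2. Cps1 was at 0.436 (0.339 to 0.555) in members against 0.794 (0.783 to 0.806) in the others. More WT than HKO members lay near the Glul limit, and their part in these ratios was not tested. When only barcodes with at least 0.12% Glul were taken, the Glul-high share was 1.51% in WT and 3.83% in HKO and the median log2 ratio of HKO over WT was 0.35 for the innermost and -0.33 for the periportal list. For the broad pericentral list it was -0.22, compared with 0.11 in all members.

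Among the listed targets of miR-33, Cyp7a1 differed most. It was at 108 CPM in WT and 408 CPM in HKO members, a ratio of 3.77 (2.87 to 4.98), and at 18.4 and 59.0 CPM in the other hepatocytes, a ratio of 3.21 (2.85 to 3.61). Its UMIs were found in 16 WT and 32 HKO members, and the ratio in members over that in the others was 1.17 (0.88 to 1.57, normal approximation to log counts). Ppargc1a, a coactivator of mitochondrial biogenesis, was at 2.06 (1.17 to 3.69) in members and 1.19 (1.07 to 1.33) in the others. Cpt1a of the carnitine shuttle was at 1.49 in members and 1.37 in the others, the peroxisomal transferase Crot at 1.02 in each, and the cholesterol exporter Abca1 at 1.03 and 1.13. Under the other settings the ratio in members ran from 0.756 to 1.70 for Abca1 and from 1.335 to 2.12 for Ppargc1a, lowest for Ppargc1a with thinning and members chosen again. The list's median log2 ratio was 0.58 in members and 0.26 in the others over 5 genes. The other two targets were under the minimum, with Prkaa1 at 4 and 3 UMIs and Abcg1 at 0 and 1 UMI in WT and HKO members.

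The other genes with high ratios in HKO members had few UMIs. Hsd17b7, an enzyme of cholesterol synthesis, had 31 UMIs in WT and 60 UMIs in HKO members, a ratio of 2.87 (1.83 to 4.58) against 1.37 (1.23 to 1.53) in the others. Lhpp was at 2.66 (1.89 to 3.79) against 1.499 (1.09 to 2.05). Fosb, an immediate early gene, had 18 UMIs in WT and 43 UMIs in HKO members, a ratio of 3.54 (2.00 to 6.52), whereas it was at 0.867 (0.775 to 0.969) in the others. Slc25a46, a mitochondrial outer membrane protein, was at 3.12 (1.77 to 5.71) against 1.08 (0.96 to 1.20). The ratio in members was 1.69 for Fosb with at least 10000 UMIs per barcode. For Slc25a46 it was 1.76 with thinning and members chosen again, and 6.41 with 0 genes of other cells allowed. For Lhpp these settings gave 4.13 and 3.90, but with a Glul limit of 0.12% its ratio was 1.992, short of 2-fold.

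The unfolded protein response list had 4 of 17 genes at least 2-fold lower in HKO members, against 3.49% of all compared genes, and 0 higher, with a median log2 ratio of -0.70 against -0.54 in the others. Pdia3, a disulfide isomerase, was at 315 CPM in WT and 88.8 CPM in HKO members, a ratio of 0.282 (0.198 to 0.393) against 0.493 (0.471 to 0.517). Hspa5, the main chaperone BiP, was at 0.401 (0.330 to 0.483) against 0.594 (0.577 to 0.611), and Manf at 0.350 (0.227 to 0.525) against 0.563 (0.529 to 0.600). Other genes of the list were lower in the others than in members, with Hyou1 at 0.585 in members against 0.374, Pdia4 at 0.617 against 0.491 and Pdia6 at 0.4815 against 0.425. Of the 17 genes, 16 had a ratio under 1 in members and 17 in the others. The disulfide isomerase P4hb (0.944) and the degradation adaptor Sel1l (0.945) did not pass, and the transcription factor Atf4 was at 1.69 in members and 0.762 in the others. The stress hormone Gdf15 had the same ratio in both classes, at 0.349 (0.250 to 0.479) in members and 0.350 (0.329 to 0.373) in the others.

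**Figure D5:**
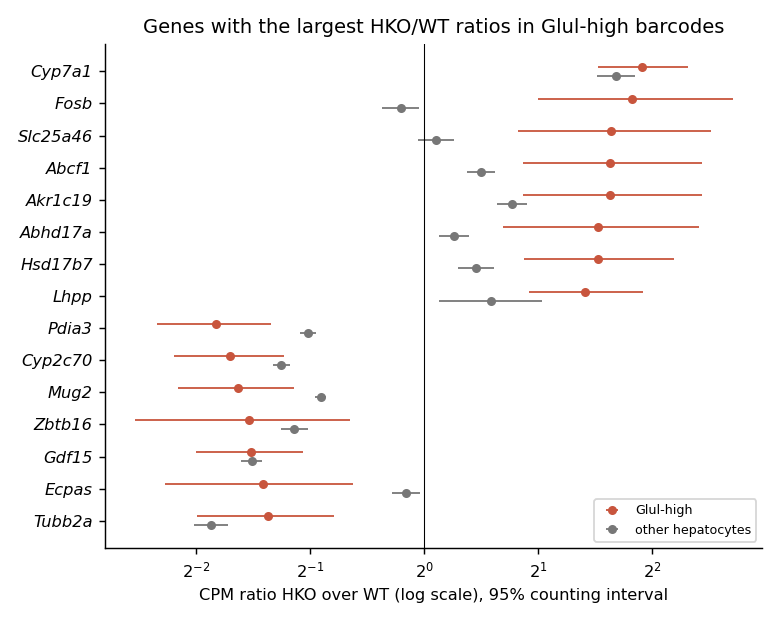
CPM ratio of HKO over WT on a log scale for genes among the 8 highest and 8 lowest in Glul-high hepatocytes (red), with the same ratio in the other hepatocytes (grey) and 95% counting intervals as bars. The ranking took genes with a mean of at least 50 CPM in members. Cyp7a1 and Gdf15 have overlapping intervals in both classes, and Fosb and Slc25a46 lie apart.

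The number of members depended on the Alb limit in HKO more than in WT. Alb had a median of 1.46% of UMIs in HKO members, with the lowest at 1.03%, close to the limit of 1%, and 2.44% in WT members. With a limit of 0.5%, chosen after the data had been seen, 17 HKO barcodes and 1 WT barcode were added. The Glul-high share became 5.46% (4.17 to 7.02) in HKO and 2.70% (1.81 to 3.85) in WT, and no difference between the genotypes is read from these shares, which moved with the settings. With at least 10000 UMIs they were 2.89% in WT and 3.00% in HKO, and with barcodes thinned to 5000 UMIs and members chosen again 4.33% and 4.86%. The 17 added HKO barcodes had Oat at 5243 CPM, Slc1a2 at 1402 CPM, Cyp2e1 at 7530 CPM and Cps1 at 205 CPM, in the range of the members.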

How the data were processed

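Single-cell RNA-seq was analysed for 2 libraries, 1 per genotype. The deposited values were UMI counts per gene and barcode, whole and not normalized, which the authors made (Cell Ranger 7.1.0 in the file header) on genome build mm10 according to the submitters' processing notes. The annotation, the counting options and how the deposited barcodes were chosen were not given in the sources used here. UMIs were summed over members and over other hepatocytes in each library, divided by the class total and scaled to CPM. Ratios have exact intervals conditional on the summed count, shares have Clopper-Pearson intervals, and a class at 0 was set to 3 counts. No test was made. No doublet caller was run: the limit on other cells' genes and a repeat without the deepest 5% of barcodes stood in for it. The members and the 29 gene lists were chosen with earlier results of these data known. Genes named were those of the zonation, urea cycle, glutamine and miR-33 lists, the 15 highest and 15 lowest ratios by the weaker library, and the 3 farthest genes of each other list. The 8 highest and 8 lowest HKO over WT ratios, among genes with a mean of at least 50 CPM in members, were named too. For these and the 15 highest and lowest, no barcode held over 25% of the UMIs. Hspa5, Manf, Hyou1, Pdia4, Pdia6, Saa1, Saa2, Lcn2, Mt2, Zfp608, Srebf2, Fasn, Acaca, Elovl6, Mlxipl, Me1, Cyp51, Fdps, Idi1, P4hb, Atf4 and the markers of other cells fall outside this rule and were named after their values were seen. Some genes that met the rule are not reported here. Gene positions came from GENCODE by Ensembl identifier, sequences from RefSeq. Ratios and intervals were tested on simulated data. The tools were numpy 2.4.6, pandas 2.3.3, scipy 1.17.1 and matplotlib 3.10.9 under Python 3.11.15.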

Additional observations from a re-analysis of the deposited data

Results flagged for a closer look

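For 5 genes, 3 of them acute phase genes, the ratio of Glul-high over other hepatocytes was at least 2 in WT and at most 0.5 in HKO, and in each case the difference was not tested. Lcn2, which encodes lipocalin 2, was at 2.70 in WT and 0.171 in HKO. Saa1 was at 4.04 and 0.341, and Saa2 at 6.69 and 0.224. Mt2, a metallothionein, was at 2.26 and 0.176. The richest WT barcode for each gene held 88.8% of the Lcn2 UMIs, 68.5% of the Saa1 UMIs, 81.5% of the Saa2 UMIs and 93.5% of the Mt2 UMIs of WT members. Without the WT barcode richest in acute phase UMIs the WT ratios were 0.323 for Lcn2, below 1 as in HKO, 1.36 for Saa1 and 1.32 for Saa2. Without the 2 richest they were 0.223, 0.247 and 0.108. Zfp608, a zinc finger gene, was at 2.04 and 0.457, and its richest WT barcode held 24.1%.

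Barcodes too shallow for the comparison also reached the Glul minimum. Of 3022 HKO barcodes with at least 1000 and under 5000 UMIs, 634 (20.98%) had Glul at 0.06% of UMIs or more, against 1485 of 16822 (8.83%) in WT. At this depth 1 to 3 Glul UMIs are enough, and barcodes near the commonest depth held Glul at 0.0324% of UMIs in HKO and 0.0185% in WT. In HKO the shallow barcodes past the minimum had Oat at 827 CPM and Slc1a2 at 176 CPM, against 205 and 46.2 CPM in the rest, and in WT Oat at 122 CPM and Slc1a2 at 24.3 CPM, against 106 and 20.8 CPM. The part of free RNA in these shares was not tested.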

How the results depend on the processing

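No paired analysis was possible because each genotype was 1 library. Over 911 alternative values of gene ratios, 670 moved by less than their counting interval, and 241 by more. The ratio lay on the other side of 1 in 11 of them, all for HKO over WT of Abca1, Crot or Prkaa1, whose main ratios were between 1.02 and 1.11. Of 229 other values, 183 moved by less than their spread or by less than 1.5 times for counts, and 46 by more. Of 153 list medians, 7 changed sign: the WT median of the Wnt targets, and for HKO over WT that of the Wnt targets (4 settings, -0.52 to -0.035, against 0.11) and of the broad pericentral list (2 settings). The causes were not tested. The Alb limit of 0.5% was added once the values were known.

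The median log2 ratio of the Wnt targets in WT reversed to -0.47 with barcodes thinned to 5000 UMIs and members chosen again on the thinned counts (46 WT barcodes, 27 of them among the 28 members), so depth and membership changed together. This setting also gave 1.45 for the broad pericentral and -0.62 for the periportal list in WT, 27 lower genes in both libraries, a WT share of 4.33%, and for HKO over WT 396 higher and 478 lower genes with list medians of 0.59 (broad pericentral), 1.40 (innermost), -1.03 (periportal) and 1.97 (Wnt targets).

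At a Glul minimum of 0.03% the shares were 7.82% in WT and 6.51% in HKO, the order of the libraries was the opposite, 37 genes were lower in both libraries, 62 were higher in HKO, and the periportal medians were -0.95 in WT and -0.79 for HKO over WT. At 0.12% the WT share was 1.51% and the broad pericentral median for HKO over WT was -0.22. That median was -0.042 with the Alb limit of 0.5% and 0.44 with 0 genes of other cells allowed, where 409 genes were higher and 381 lower in HKO.

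With at least 10000 UMIs, 410 genes were lower in HKO, and the periportal medians were -3.94 in HKO and -0.90 for HKO over WT. With barcodes weighted equally, 54 genes were lower in both libraries, 261 were higher and 267 lower in HKO, and the WT periportal median was -1.13. After subtraction of free RNA it was -2.91 in WT and -3.17 in HKO.

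At 1.5-fold, 284 genes were higher and 203 lower in both libraries, and 586 higher and 573 lower in HKO members. At 3-fold the counts were 74, 42, 18 and 38. A minimum of 100 CPM gave 63, 35, 11 and 32, and a minimum of 10 CPM gave 378 higher and 407 lower in HKO.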
